A study of Mus musculus with 6 samples.

Results

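The choroid plexus, the secretory tissue of the brain ventricles, was followed through 10 genes that are known for their expression in its epithelium: Ttr, Kl, Folr1, Clic6, Aqp1, Otx2, Slc4a5, Sostdc1, Enpp2 and Prlr. The genes were chosen by name, and all 10 were found among the 53801 genes of the deposited count table. All 10 were also among the 23975 genes tested, those whose counts over the 6 libraries added up to 10 or more. RNA-seq compared one frozen hemisphere from each of 3 Bahd1-WT mice (Bahd1+/+) and 3 Bahd1-KO mice (Bahd1-/-), adult males of the strain C57BL/6 aged about 70 weeks. The Bahd1-KO mice lack the gene in every tissue from conception on, and many of them die around birth, so the mice studied were survivors. Labels number the mice of each genotype from 1 to 3 and name no batch.

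The choroid plexus is a vascular fold covered by a single sheet of epithelial cells joined by tight junctions. These cells move ions, bicarbonate and water from blood to ventricle to make cerebrospinal fluid, and secrete carrier proteins, enzymes and signalling factors into it. The tissue is a very small part of the brain, so that its transcripts in a whole hemisphere depend on how much plexus was taken. In such bulk samples, fewer cells of a type and less RNA per cell cannot be told apart.

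The libraries held 42297150 to 93557948 counts. Counts of Bahd1, given for replicates 1, 2 and 3 in that order here and from here on, were 1383, 844 and 1099 in Bahd1-WT and 0, 14 and 1 in Bahd1-KO, as the labels say. One property of the libraries touches every result below, namely the GC content of transcripts. Between the 10% of expressed genes with the highest GC content and the 10% with the lowest, the median log2 level relative to the mean of the 6 libraries differed by -0.61, -1.27 and -0.88 in Bahd1-WT and by -0.11, 2.16 and 0.77 in Bahd1-KO. Every Bahd1-KO value lay above every Bahd1-WT value, with Bahd1-KO replicate 2 far the highest. The GC trend thus went with genotype, and their effects cannot be told apart. Each fold change is therefore given as tested and, where it matters, with an offset for GC content and length fitted in each library. Such an offset may also take away a difference between the genotypes.

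Prlr, Enpp2, Clic6 and Aqp1 are shown by the first 90 coding bases of their transcripts (GENCODE annotation of GRCm38), with G and C in capitals, because the libraries differed in how the level of genes went with base composition. Prlr (chr15:10177238-10349180, plus strand) and Enpp2 (chr15:54838901-54952892, minus strand) have the lowest GC content of the coding sequence among the 10 members, 46.8% and 46.2%. Clic6 (chr16:92485736-92541243, plus strand) and Aqp1 (chr6:55336432-55348555, plus strand) have the highest, 59.4% and 58.1%. The stretches of Prlr, Enpp2, Clic6 and Aqp1 themselves hold 47.8%, 46.7%, 65.6% and 52.2% G and C.
Prlr: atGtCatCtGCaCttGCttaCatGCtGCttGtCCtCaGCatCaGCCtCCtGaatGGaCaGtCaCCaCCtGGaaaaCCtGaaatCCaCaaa
Enpp2: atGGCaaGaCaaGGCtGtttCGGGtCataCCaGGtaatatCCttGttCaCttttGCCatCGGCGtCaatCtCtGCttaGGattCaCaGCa
Clic6: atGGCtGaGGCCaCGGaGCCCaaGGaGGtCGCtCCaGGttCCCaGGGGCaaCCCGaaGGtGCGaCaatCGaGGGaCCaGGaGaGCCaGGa
Aqp1: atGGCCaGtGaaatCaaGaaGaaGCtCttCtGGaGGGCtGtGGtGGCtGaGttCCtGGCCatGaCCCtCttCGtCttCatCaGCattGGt

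In Bahd1-WT brains the members differed greatly in abundance. Ttr, whose product transthyretin carries thyroid hormone and retinol-binding protein, had the highest level per kilobase of exon, with 227 ± 42.0 (SD, n = 3) CPM per kilobase. CPM is the count of a gene scaled to a fixed library size, here normalized by the TMM method. Enpp2, which encodes the secreted lysophospholipase autotaxin, followed with 151 ± 21.9 CPM per kilobase. In CPM alone Enpp2 was the higher, at 873 against 269 for Ttr. The length taken was that of all annotated exons joined, 5779 bases for Enpp2, whose longest transcript has 3095, and 1186 for Ttr. The order of the members thus depends on the length taken. Then came Clic6 at 6.13 ± 0.44 and Kl at 3.70 ± 0.36 CPM per kilobase, and the remaining 6 members lay between 0.98 and 3.28. Per kilobase, the ranges of the 3 Bahd1-WT libraries overlapped between the neighbours Kl and Sostdc1, Prlr and Folr1, Folr1 and Aqp1, and Aqp1 and Slc4a5, and those of the other neighbours in the order did not. Ttr and Enpp2 together took 90.9% to 91.6% of all counts of the members in Bahd1-WT libraries and 92.4% to 94.5% in Bahd1-KO libraries.

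**Figure D1:**
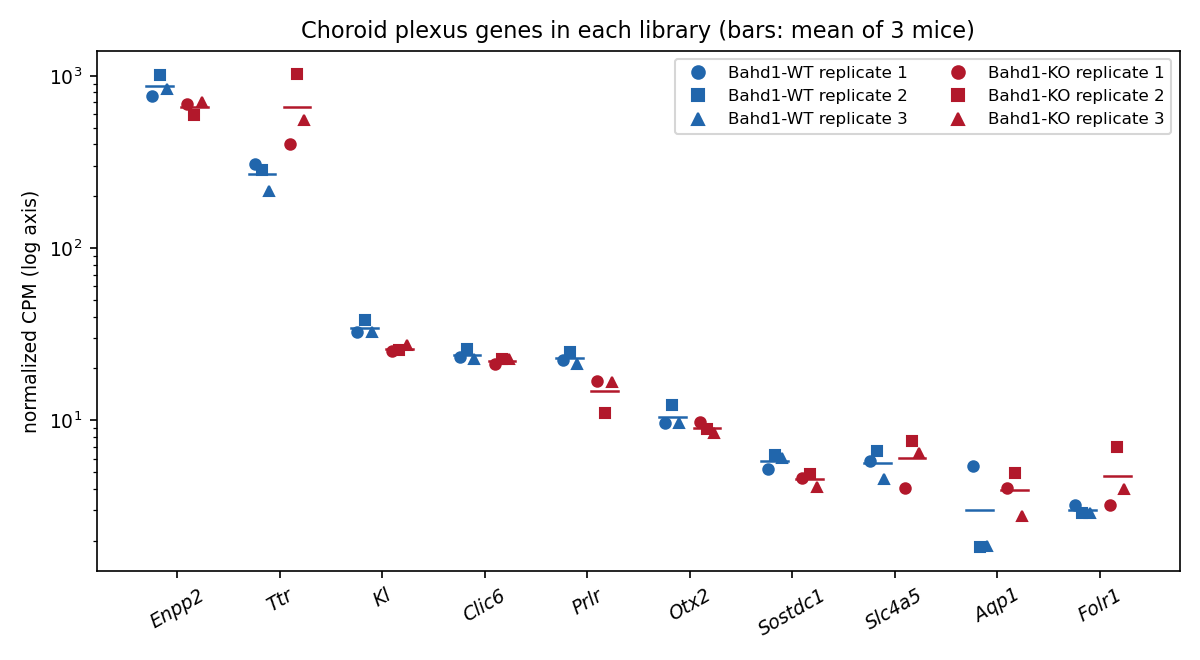
Level of each of the 10 choroid plexus genes in normalized CPM (log axis) in the 3 Bahd1-WT (blue) and 3 Bahd1-KO (red) libraries, with the mean of each genotype as a bar and the marker shape giving the replicate number. Ttr lies higher in all 3 Bahd1-KO libraries, at 402 to 1018 CPM against 213 to 309, while Kl, Enpp2, Prlr and Sostdc1 lie lower.

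The comparison of the genotypes asked how loss of BAHD1 changed gene expression in the adult brain. Ttr was the member with the largest difference. Its level was 309, 285 and 213 CPM in Bahd1-WT replicates 1, 2 and 3, and 402, 1018 and 554 CPM in Bahd1-KO replicates 1, 2 and 3. Every Bahd1-KO library was above every Bahd1-WT library, and Bahd1-KO replicate 2 was far above the other 2. Mean levels were 269 ± 49.8 CPM in Bahd1-WT and 658 ± 321 CPM in Bahd1-KO (SD over 3 mice each). For Ttr the log2 fold change was 1.29 (standard error 0.33), a 2.44-fold difference. edgeR's quasi-likelihood test gave it an adjusted p of 0.0634. It therefore missed the threshold of 0.05 in the main test. DESeq2 is the tool named by the study, and here, run with its normal prior on fold changes, it gave Ttr an adjusted p of 0.00254. Without Bahd1-KO replicate 2 the log2 fold change was 0.83 with an adjusted p of 0.0559, and without Bahd1-KO replicate 1 it was 1.58 with an adjusted p of 0.00573.

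None of the 10 members passed an adjusted p of 0.05 in edgeR, where 0.00834% of all genes tested did, that is 2 genes. At an unadjusted p under 0.05, 4 of 10 members passed (Ttr higher, and Kl, Enpp2 and Prlr lower), against 31.8% of all genes. By direction, 19.9% of all genes passed as higher and 12% as lower. In DESeq2 with the normal prior, 1 of 10 members (Ttr) had an adjusted p under 0.05 and at least a 2-fold change, against 10.5% of all genes tested. The libraries of the genotypes did not overlap for 5 of 10 members, against 39.8% of all genes. Of these, Ttr had every Bahd1-KO library above every Bahd1-WT library, as 20.6% of all genes did, and Kl, Enpp2, Prlr and Sostdc1 had every one below, as 19.3% of all genes did. The count past an adjusted p of 0.05 rested on which mice were included. Without Bahd1-KO replicate 1, the library of lowest depth, 3 of 10 members passed (Ttr, Folr1 and Prlr), against 30% of all genes, and without Bahd1-KO replicate 2 none did, against 0.0174% of all genes. The median log2 fold change of the 10 members was -0.17, and that of all genes tested was -0.06.

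Among the other secreted and signalling members, Enpp2 had 764, 1011 and 843 CPM in Bahd1-WT and 689, 589 and 706 CPM in Bahd1-KO replicates 1, 2 and 3. All 3 Bahd1-KO values lay below the lowest Bahd1-WT value. Enpp2 differed by a log2 fold change of -0.40 (standard error 0.17, edgeR adjusted p = 0.141), and by -0.11 with the offset. Autotaxin is also made by oligodendrocytes, the myelin-forming cells, so its transcripts in a hemisphere do not come from the plexus alone. Of the 9 oligodendrocyte markers used here, 3 had an unadjusted p under 0.05 as higher and 1 as lower, beside 19.9% and 12% of all genes. Their median log2 fold change was -0.08, and 0.41 with the offset, where 5 passed as higher and 2 as lower, beside 9.82% and 11.6% of all genes. The myelin gene Mobp had a log2 fold change of -0.21 (-0.67 with the offset), Cnp had 0.70 (edgeR adjusted p = 0.0719, and -0.01 with the offset) and Mbp had 1.17 (edgeR adjusted p = 0.065, and 1.02 with the offset). The part of oligodendrocytes in the value of Enpp2 was not tested.

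Kl (chr5:150952607-150993817, plus strand) encodes klotho, a coreceptor for the hormone FGF23 whose shed form enters the cerebrospinal fluid. It had 32.5, 38.4 and 32.5 CPM in Bahd1-WT and 25.4, 25.5 and 27.5 CPM in Bahd1-KO. These genotypes did not overlap, and the spread within each was small. For Kl the log2 fold change was -0.40 (standard error 0.16, edgeR adjusted p = 0.13), and -0.27 with the offset. Sostdc1 (chr12:36314139-36318452, plus strand), a secreted antagonist of bone morphogenetic proteins, had 5.21, 6.25 and 6.04 CPM in Bahd1-WT and 4.62, 4.89 and 4.13 CPM in Bahd1-KO. Its libraries did not overlap either, and its log2 fold change was -0.36 (standard error 0.20, edgeR adjusted p = 0.24), or -0.19 with the offset.

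Neither of the receptors among the members passed the test. Prlr, the prolactin receptor, had 22.5, 24.8 and 21.4 CPM in Bahd1-WT and 16.9, 11.0 and 16.8 CPM in Bahd1-KO. All Bahd1-KO libraries were below all Bahd1-WT libraries, with replicate 2 the lowest. The log2 fold change of Prlr was -0.62 (standard error 0.21, edgeR adjusted p = 0.0967), and 0.01 with the offset. Folr1 (chr7:101858331-101870788, minus strand) encodes the folate receptor that takes folate across the epithelium. It had 3.25, 2.90 and 2.90 CPM in Bahd1-WT and 3.24, 7.0 and 4.01 CPM in Bahd1-KO. Bahd1-KO replicate 1 lay within the Bahd1-WT range, and replicate 2 was the highest. For Folr1 the log2 fold change was 0.66 (standard error 0.30, edgeR adjusted p = 0.17), and with the offset it was -0.11. Without Bahd1-KO replicate 2 it was 0.27 (edgeR adjusted p = 0.481).

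Members that make channels and transporters overlapped between the genotypes. Clic6, of the family of chloride intracellular channels, was the member with the smallest ratio of its highest to its lowest CPM, with 23.3, 25.9 and 22.7 CPM in Bahd1-WT and 21.3, 22.8 and 22.6 CPM in Bahd1-KO. Its log2 fold change was -0.11 (standard error 0.16, edgeR adjusted p = 0.651). With the offset it was -0.41 (edgeR adjusted p = 0.118), the lowest value of any member there. Slc4a5 (chr6:83219828-83304945, plus strand), a sodium bicarbonate cotransporter, had 5.78, 6.64 and 4.60 CPM in Bahd1-WT and 4.05, 7.62 and 6.49 CPM in Bahd1-KO. The highest and the lowest of these values both came from Bahd1-KO mice. The log2 fold change of Slc4a5 was 0.10 (standard error 0.28, edgeR adjusted p = 0.828), and it was -0.19 with the offset.

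Aqp1, the water channel of the ventricular face of the epithelium, was the least even member in Bahd1-WT. It had 5.40, 1.83 and 1.87 CPM in Bahd1-WT and 4.07, 4.94 and 2.80 CPM in Bahd1-KO. Bahd1-WT replicate 1 was above all other libraries, and the other 2 Bahd1-WT libraries were below all Bahd1-KO libraries. For Aqp1 the log2 fold change was 0.37 (standard error 0.44, edgeR adjusted p = 0.576), and without Bahd1-WT replicate 1 it was 1.09 (edgeR adjusted p = 0.119). The offset turned its direction, to -0.29. That library also held transcripts of lung, a tissue whose capillaries express Aqp1. The 6 lung markers summed to 114, 27.1 and 2.43 CPM in Bahd1-WT replicates 1, 2 and 3 and to 0.55, 1.43 and 0.93 CPM in Bahd1-KO, and all 6 had an unadjusted p under 0.05 as lower, beside 12% of all genes. Scgb1a1, Sftpc and Sftpa1 were the most abundant of these, and the part of lung transcripts in the value of Aqp1 was not tested.

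Otx2 (chr14:48657677-48673819, minus strand) encodes a homeodomain transcription factor needed for the formation and upkeep of the choroid plexus. It had 9.66, 12.2 and 9.64 CPM in Bahd1-WT and 9.79, 8.89 and 8.39 CPM in Bahd1-KO. The genotypes overlapped, and the log2 fold change of Otx2 was -0.22 (standard error 0.20, edgeR adjusted p = 0.449), or -0.07 with the offset. RefSeq windows from 250 bases before to 50 after a transcription start (GRCm38.p6) were searched for 5 of the 10 members (Kl, Aqp1, Slc4a5, Otx2 and Prlr). Ttr was left out of this search. The members had 10 windows in all. The letters TAATCC, read on both strands, which are the core recognized by OTX proteins, were in 1 of these 10 windows, one of Otx2, against 7.06% of the 32851 windows of all genes. The match lay at position -211 from the start, in a stretch that also overlaps an annotated exon, printed with the match in capitals.
Otx2, chr14:48665303-48665332, minus strand: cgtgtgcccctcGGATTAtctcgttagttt

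The abundance of Ttr was then set against the other members within each library, which removes the scaling between libraries. The ratio of Ttr counts to Kl counts was 9.51, 7.42 and 6.56 in Bahd1-WT and 15.9, 39.9 and 20.2 in Bahd1-KO. The ratio to Clic6 counts was 13.3, 11.0 and 9.39 in Bahd1-WT and 18.9, 44.7 and 24.5 in Bahd1-KO. For Enpp2, the other abundant member, the ratio was 0.40, 0.28 and 0.25 in Bahd1-WT and 0.58, 1.73 and 0.78 in Bahd1-KO. In each of these ratios, every Bahd1-KO library exceeded every Bahd1-WT library. The same held for 8 of the 9 members, with Aqp1 the exception, and for 72.4% of the 13291 other expressed genes. The geometric mean of the ratio differed 1.54-fold for Folr1, the smallest difference, and 3.59-fold for Prlr, the largest. No test was made on these ratios.

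**Figure D2:**
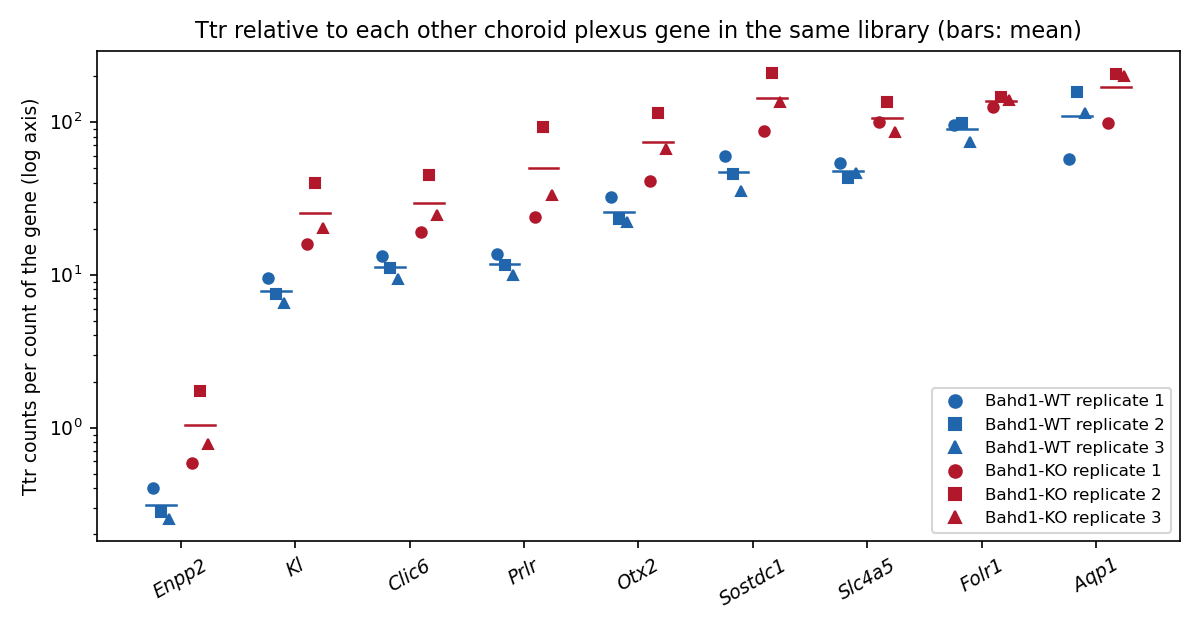
Counts of Ttr per count of each other choroid plexus gene in the same library (log axis), for 3 Bahd1-WT (blue) and 3 Bahd1-KO (red) libraries, with the mean as a bar. All 3 red points lie above all 3 blue points for 8 of the 9 genes, and for Aqp1 they overlap.

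Of the 36 ratios between pairs of the 9 other members, 11 did not overlap between the genotypes, against 50% of all pairs of expressed genes. Kl and Enpp2 were the closest pair, and the highest of their 6 ratios was 1.18 times the lowest. Aqp1 and Prlr were the widest of these pairs, with 6.08 times, followed by Folr1 and Prlr with 5.45 times. The ratios of Ttr to the other members spanned from 1.98 times, for Folr1, to 9.27 times, for Prlr. Of all counts of the members, Ttr took 26.2%, 20.1% and 18.4% in Bahd1-WT and 34.1%, 59.9% and 40.9% in Bahd1-KO. Enpp2 took 64.7%, 71.5% and 72.8% in Bahd1-WT and 58.4%, 34.6% and 52.2% in Bahd1-KO. In Bahd1-KO replicate 2, Ttr thus took more of these counts than Enpp2, and in the other 5 libraries it took fewer.

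The fold changes were next read beside the GC content of the transcripts. Over 10 groups of expressed genes ordered by the GC content of their longest transcript, the median log2 fold change ran from -0.55 in the lowest group to 1.4 in the highest. Of the 9 members other than Ttr, 7 lay within the interquartile range of their GC group, and 2 (Kl and Clic6) lay below it. Prlr, at 39.4% GC, had a log2 fold change of -0.62, where its group had a median of -0.55. Folr1, at 54.4% GC, had 0.66, where its group had a median of 0.54. Clic6, at 52.2% GC, had -0.11, where its group had a median of 0.27, and Slc4a5 in the same group had 0.10. Composition was also read from the coding sequence alone. With an offset from that, Kl, Clic6 and Sostdc1 had log2 fold changes of -0.65, -0.92 and -0.97 (edgeR adjusted p = 0.092 for each), and Enpp2 had -0.02. The size of the difference of these members thus depended on the sequence taken.

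Ttr departed from its group. Its longest transcript has 46.5% GC. The 1427 expressed genes (mean log2 CPM above 1) within 1 percentage point of it, Ttr included, had a median log2 fold change of -0.24. Of these genes, 7 (0.491%), counting Ttr itself, had a log2 fold change of at least that of Ttr. Of all genes tested, a set that also holds genes of lower counts, 9.92% did. With the offset from the longest transcript, the log2 fold change of Ttr was 1.4 (standard error 0.34, edgeR adjusted p = 0.0882), and 1.91% of all genes tested had at least as large a value. The GC content of a gene depends on what is counted, and the coding sequence of Ttr has 55.1% GC. Of the 1471 expressed genes within 1 percentage point of that value, 75 (5.10%), again counting Ttr, had a log2 fold change of at least that of Ttr. The median of the 1471 genes was 0.40. With an offset from the coding sequence, the log2 fold change of Ttr was 0.80 (edgeR adjusted p = 0.106). With the offset from the longest transcript and without Bahd1-KO replicate 2, Ttr had 0.93 (edgeR adjusted p = 0.174). Ttr was thus the higher in Bahd1-KO under each form of the offset, by an amount that depended on the form and on that library.

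**Figure D3:**
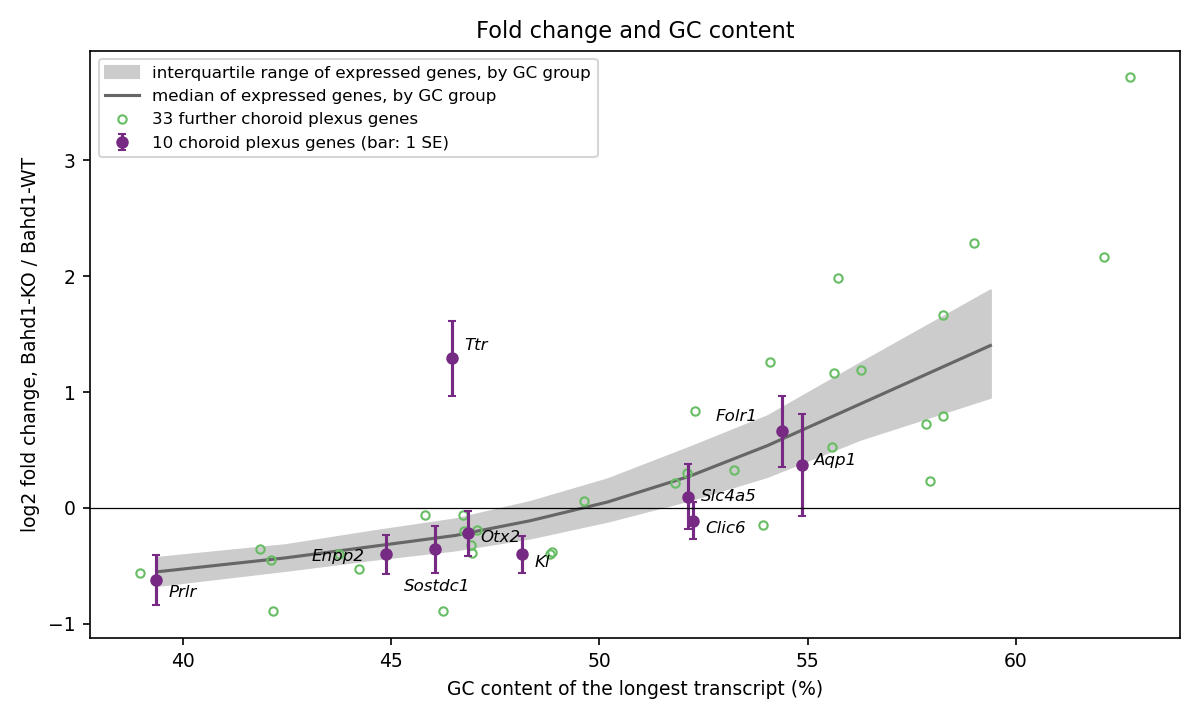
Log2 fold change between the genotypes against the GC content of the longest transcript (%), for the 10 choroid plexus genes (purple, bars of 1 standard error) and 33 further genes of the tissue (green circles). The grey line and band give the median and interquartile range of expressed genes in 10 groups of GC content, and Ttr, at 46.5% GC and a log2 fold change of 1.29, lies far above the band.

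The Bahd1-KO libraries stood in one order for Ttr, with replicate 1 lowest and replicate 2 highest, and other measures had this order too. It was the order of the GC difference given above, and of the summed oligodendrocyte markers, with 3717, 6828 and 5152 CPM in Bahd1-KO against 3402 to 3924 CPM in Bahd1-WT. Mbp carried that excess in the sum, since the other 8 markers summed to 2116, 2455 and 2282 CPM in Bahd1-KO and to 2200 to 2607 CPM in Bahd1-WT. Mobp made up most of the latter sums. Mbp was not the only marker that was higher. Of the 9, 3 had every Bahd1-KO library above every Bahd1-WT library, Mbp and Cnp among them, as 20.6% of all genes did. Over single genes, 28.8% of all genes tested had this order of the Bahd1-KO libraries. So did 5 of 5 red blood cell, 5 of 10 ependymal and 4 of 9 oligodendrocyte markers, and 4 of the 10 members. Of the further choroid plexus genes described below, 3 of 12 in transport and 11 of 21 in barrier and secretion had it. Those 21 genes summed to 220, 274 and 239 CPM in Bahd1-KO and 213 to 241 CPM in Bahd1-WT. The 5 red blood cell markers summed to 10.8, 11.7 and 15.9 CPM in Bahd1-WT and to 15.1, 92.6 and 30.3 CPM in Bahd1-KO, and 4 of the 5 had an unadjusted p under 0.05 as higher, beside 19.9% of all genes. The most abundant of them, Hbb-bs, had a log2 fold change of 1.99 (edgeR adjusted p = 0.0741), or 1.49 with the offset and 0.98 (edgeR adjusted p = 0.135) without Bahd1-KO replicate 2. The globin gene Hba-a1 had 3.19 (edgeR adjusted p = 0.0642), or 1.67 with the offset and 1.66 without that library. Alas2, the heme synthesis enzyme of red cell precursors, had -0.05, or -0.56 with the offset. The 10 markers of ependymal cells, the ciliated cells that line the ventricles, summed to 26.0, 22.4 and 23.7 CPM in Bahd1-WT and to 31.6, 56.6 and 33.9 CPM in Bahd1-KO. Of these, 5 had an unadjusted p under 0.05 as higher and none as lower, beside 19.9% and 12% of all genes. With the offset, 4 had an unadjusted p under 0.05 as higher, beside 9.82% of all genes. Foxj1, the master factor of motile cilia, had a log2 fold change of 2.56 (edgeR adjusted p = 0.0634), or 0.93 with the offset. Without Bahd1-KO replicate 2, Foxj1 had 1.80. Rarres2, which encodes chemerin, had 0.62 (edgeR adjusted p = 0.157), or 0.48 with the offset, and 0.29 without Bahd1-KO replicate 2. Dnah5, a dynein of the cilia, had -0.39 (edgeR adjusted p = 0.266), or -0.08 with the offset, with every Bahd1-KO library below every Bahd1-WT library. The part of blood, ependyma, oligodendrocytes and GC content in the difference of Ttr was not tested.

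The summed markers of the remaining neighbouring tissues did not have this order, although single markers did: 3 of 10 in the meninges, 3 of 8 in endothelium, 4 of 8 in neurons, 1 of 6 in the pituitary and none of 4 in the pineal gland. The 10 markers of the meninges summed to 151 to 157 CPM in Bahd1-WT and 140 to 154 CPM in Bahd1-KO, and 7 of the 10 were higher and 3 lower. Their log2 fold changes had a median of 0.16, or -0.06 with the offset. Of the most abundant of them, the proteoglycan genes Dcn and Ogn had log2 fold changes of -0.42 and -0.76 (0.22 and -0.18 with the offset), and the carboxylate transporter Slc13a3 had 0.77 (edgeR adjusted p = 0.0882, and -0.08 with the offset). The 8 endothelial markers summed to 254 to 281 CPM in Bahd1-WT and 265 to 307 CPM in Bahd1-KO. The pineal gland also expresses Otx2, and its markers summed to 0.98 to 1.60 CPM in Bahd1-WT and 1.66 to 1.77 CPM in Bahd1-KO, with 4 of 5 markers tested and Asmt, at 1 count over all libraries, under the filter. The 6 pituitary markers were uneven, from 0.18 CPM in Bahd1-KO replicate 1 to 42.5 CPM in Bahd1-KO replicate 3. Neuronal markers summed to 6893 to 8226 CPM in Bahd1-WT and 7279 to 7905 CPM in Bahd1-KO, and marked all 6 libraries as brain. Of these 8 markers, 4 had an unadjusted p under 0.05 as higher and 0 as lower, beside 19.9% and 12% of all genes. With the offset 3 were higher and 1 lower, beside 9.82% and 11.6% of all genes. Their median log2 fold change was 0.37, or -0.02 with the offset.

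A further 33 genes known from the choroid plexus, 12 in ion and solute transport and 21 in barrier, secretion and epithelial identity, were all among the genes tested. None passed an adjusted p of 0.05 in edgeR. At an unadjusted p under 0.05, 10 of 33 were higher in Bahd1-KO and 3 lower, beside the 19.9% and 12% of all genes given above. With the offset 6 were higher and 7 lower, beside 9.82% and 11.6% of all genes. In DESeq2 with the normal prior, 10 of 33 had an adjusted p under 0.05, against 17.1% of all genes, and in edgeR without Bahd1-KO replicate 1, 13 of 33 did, against 30% of all genes. The median log2 fold change of the 33 genes was 0.06 as tested and 0.0011 after the offset.

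Of the 12 transport genes, 4 were higher and 8 lower in Bahd1-KO, and the median log2 fold change was -0.35, or -0.03 with the offset. The most abundant was Slc4a10, a sodium bicarbonate transporter that neurons express too. It had 315, 332 and 330 CPM in Bahd1-WT and 289, 159 and 265 CPM in Bahd1-KO, with a log2 fold change of -0.45 (edgeR adjusted p = 0.189). Slc12a2, the sodium-potassium-chloride cotransporter that drives fluid secretion, had 211, 240 and 189 CPM in Bahd1-WT and 169, 103 and 171 CPM in Bahd1-KO, with a log2 fold change of -0.53 (edgeR adjusted p = 0.137). With the offset these values were -0.02 for Slc4a10 and -0.17 for Slc12a2, and the part of GC content in either difference was not tested. The copper transporter Slc31a1 had a log2 fold change of -0.40 and the carbonic anhydrase Car12 of -0.38, or -0.03 and -0.34 with the offset. Slco1a5, a carrier of organic anions, had -0.89 (edgeR adjusted p = 0.0976), or -0.46 with the offset.

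Of the transport genes with a higher level, Slc4a2, a chloride-bicarbonate exchanger of the blood-facing membrane, had 11.0, 7.97 and 7.29 CPM in Bahd1-WT and 13.1, 44.6 and 25.5 CPM in Bahd1-KO. All Bahd1-KO libraries were above all Bahd1-WT libraries, and replicate 2 was the highest. The log2 fold change of Slc4a2 was 1.66 (edgeR adjusted p = 0.0634), and 0.44 with the offset. Trpv4, a calcium channel that senses osmotic and mechanical change, had 0.81, 0.34 and 0.45 CPM in Bahd1-WT and 0.92, 5.17 and 1.74 CPM in Bahd1-KO. Its log2 fold change was 2.29 (edgeR adjusted p = 0.0649), and 0.89 with the offset.

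Of the 21 genes of barrier, secretion and identity, 13 were higher and 8 lower in Bahd1-KO, with a median log2 fold change of 0.33, or 0.04 with the offset. Wfikkn2, a secreted binder of growth differentiation factors, had 1.14, 1.05 and 1.08 CPM in Bahd1-WT and 2.25, 2.42 and 2.68 CPM in Bahd1-KO. The spread within each genotype was small beside the gap between them, and Bahd1-KO replicate 2 did not stand apart. Its log2 fold change was 1.17 (standard error 0.22, edgeR adjusted p = 0.0634), and 0.41 with the offset. F5, the coagulation factor V, was the counterpart among the genes with a lower level, with 11.7, 14.2 and 12.2 CPM in Bahd1-WT and 6.96, 5.93 and 7.76 CPM in Bahd1-KO. The genotypes did not overlap, and the log2 fold change of F5 was -0.89 (standard error 0.20, edgeR adjusted p = 0.0634), or -0.61 with the offset.

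Igfbp2, a secreted binder of insulin-like growth factors, had 9.75, 5.60 and 5.10 CPM in Bahd1-WT and 15.0, 54.1 and 22.8 CPM in Bahd1-KO. Every Bahd1-KO library was higher, and the log2 fold change of 2.17 (edgeR adjusted p = 0.0634) was 0.42 with the offset. Without Bahd1-KO replicate 2 it was 1.48 (edgeR adjusted p = 0.0501). The tight junction gene Cldn2, typical of this leaky epithelium, had 5.73, 7.50 and 6.14 CPM in Bahd1-WT and 4.90, 5.03 and 4.75 CPM in Bahd1-KO. These did not overlap, and the log2 fold change of Cldn2 was -0.40 (edgeR adjusted p = 0.204), and -0.37 with the offset. Among the abundant genes, Sulf1 and Cab39l had log2 fold changes of -0.06 and -0.35 (0.16 and 0.09 with the offset), and Ace, the angiotensin-converting enzyme, had 0.53 (edgeR adjusted p = 0.198), or -0.25 with the offset.

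**Figure D4:**
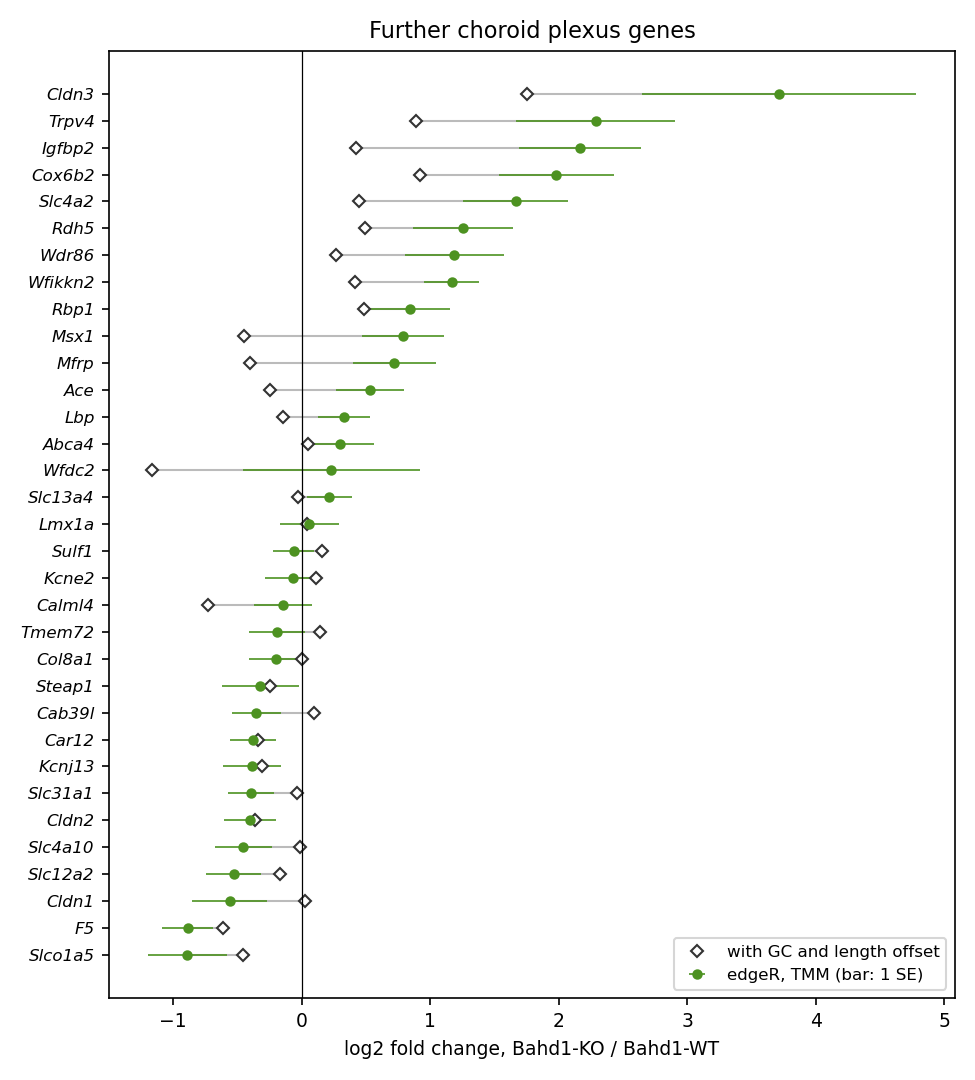
Log2 fold change between the genotypes for the 33 further choroid plexus genes, from the main test (green points, bars of 1 standard error) and with the GC and length offset (open diamonds). The main values spread from -0.89 to 3.71 and 29 of 33 lie nearer 0 with the offset. The highest value rests on few counts, 3, 0 and 1 in Bahd1-WT and 2, 51 and 6 in Bahd1-KO. It is 2.06 without Bahd1-KO replicate 2. The offset was fitted over all expressed genes, and the share of all genes that moved nearer 0 is not given.

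Genes outside the list were ranked by how near their profile over the 6 libraries was to the mean profile of the 10 members, as the root mean square distance of centred log2 CPM. The nearest 8 of the expressed genes were Mettl13, Mrgbp, Pinx1, Bid, Vwa3a, Proser1, Tbc1d8 and Tnip2, at distances of 0.03 to 0.06. The mean profile was nearly flat, from -0.16 in Bahd1-WT replicate 3 to 0.18 in Bahd1-KO replicate 2. The members lay farther from it than those genes, from 0.11 for Clic6 to 0.67 for Ttr.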

How the data were processed

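RNA-seq of adult Bahd1-WT and Bahd1-KO brains was analysed as read counts per gene. Per the labels and the study's methods, the authors trimmed reads with cutadapt 1.11, aligned them to GRCm38 with STAR 2.5.0a and counted exonic reads with featureCounts 1.4.6-p3. The methods name Tophat2 as well. The authors deposited raw counts with no normalization, and 0 columns of other samples were present. Samples were grouped by the genotype in their labels, and nothing in the labels says more on how replicates were raised or handled.

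Genes were kept when their counts over all libraries came to 10 or more, and were tested by edgeR 4.0.16 in R 4.3.3 (TMM, quasi-likelihood test, genotype as the only factor, Benjamini-Hochberg adjustment over all genes tested), with DESeq2 1.42.0 as an alternative. Genes past an adjusted p of 0.05 that differed at least 2-fold (1 on the log2 scale) were DEGs. For the offset, log2 CPM was fitted by natural splines of GC content (5 degrees of freedom) and log length (3), separately in each library, over 13283 genes with a mean log2 CPM above 1. Lengths and GC content came from GENCODE M21 and covered 99.9% of the genes tested. Fits were tested on simulated data. The members and lists were chosen with earlier results of these data known. Named genes were the members, Bahd1, the 8 nearest in profile, and from each further choroid plexus list the 4 most abundant and the 2 of lowest p in each direction. The rule also took the 3 most abundant of each marker list, and of these the text names those of ependyma, oligodendrocytes, meninges, red cells and lung, leaving out those of endothelium, pineal gland, pituitary and neurons, whose lists are given by their sums. A gene among the markers is not reported here. A floor of 3 counts, which is 0.0315 to 0.069 CPM, covers counting error only. Alternatives were other scalings, filters and tests, leaving out each sample, the replicate block and the offset, and offsets from protein-coding transcripts or coding sequence and the offset without Bahd1-KO replicate 2 were added after the data were seen.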

Additional observations from a re-analysis of the deposited data

How the results depend on the processing

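None of the members passed an adjusted p of 0.05 in the main test. 1 did with total counts, with genes of at least 1 count kept, and in DESeq2 with and without the prior (Ttr each time), and leaving out a sample gave 0 to 3, the 3 without Bahd1-KO replicate 1 being Ttr, Folr1 and Prlr. Of the further choroid plexus genes, 0 passed in the main test, 6 with total counts and 9 with at least 1 count. In DESeq2 with and without the prior, 10 and 10 did. Leaving out a sample gave 0 to 13 of them, the 13 without Bahd1-KO replicate 1, where 30% of all genes passed. Of all genes tested, 2 of 23975 passed in the main test, 2253 of 23975 with total counts and 3611 of 32795 with at least 1 count. In DESeq2 with and without the prior, 4107 and 4112 of 23975 did. The median log2 fold change of the members was -0.31 with upper-quartile factors, which also moved the median of all genes to -0.20, and -0.31 with the offset from the coding sequence; it ran from -0.22 to -0.08 when a sample was left out. Ttr remained higher in Bahd1-KO in all 19 alternatives, at 0.80 to 1.58. Values of Kl, Clic6, Otx2, Sostdc1 and Enpp2 were below 0 in all 19, but ranged from -0.65 to -0.26, -0.92 to -0.033, -0.36 to -0.017, -0.97 to -0.13 and -0.54 to -0.021.

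Signs turned for 4 members. Slc4a5, at 0.10 in the main test and 0.35 without Bahd1-KO replicate 1, was -0.060 with upper-quartile factors, -0.04 without Bahd1-WT replicate 3 and -0.10 without Bahd1-KO replicate 2. With the GC and length offset, Slc4a5 was -0.19, Folr1 -0.11, Aqp1 -0.29 and Prlr 0.012. With the offset from the longest protein-coding transcript they were -0.12, -0.052, -0.24 and 0.025 in the same order. With the offset from the coding sequence, Slc4a5 was -0.33 and Aqp1 -0.34. With the offset and without Bahd1-KO replicate 2, Slc4a5 was -0.32, Folr1 -0.21 and Aqp1 -0.25. None of the 8 genes nearest in profile was among the nearest 8 after the offset. Beyond the offset's own construction, the cause was not tested.

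Same-numbered mice did not deviate together (correlations of -0.64, -0.66 and -0.14). With so few mice of each genotype, whose libraries also differed in the GC trend, these correlations cannot decide whether the numbers pair the samples. With the replicate block 0 members passed, beside 7 of all 23975 genes tested, and the median of the members was -0.16. With the offset and the replicate block the values of Slc4a5, Folr1, Aqp1 and Prlr were -0.19, -0.13, -0.16 and 0.012. Depth limits Aqp1, with 113 counts in its lowest library, more than Ttr, with 15649.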
